A study of Mus musculus with 10 samples.

Results

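The Notch genes described here are the 10 receptor, ligand and target genes *Notch1*, *Notch2*, *Notch3*, *Notch4*, *Jag1*, *Jag2*, *Dll1*, *Dll4*, *Hes1* and *Hey1*. They were chosen by symbol from the 45706 genes of a uterine RNA-seq count table, with earlier results of these data known. All 10 passed the filter on low counts (mean of 1 or more), which 25146 genes passed and were tested. *Notch3*, *Notch4* and *Jag2* fell in uteri with an epithelial *Arid1a* deletion, to 55.0%, 60.6% and 62.5% of the control mean. The other 7 members, among them the targets *Hes1* and *Hey1*, did not pass the test, and no member was called higher.

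Notch receptors are membrane proteins that are activated by ligands of the Jagged and Delta-like families on neighbouring cells. Ligand binding leads to cleavage of the receptor by an ADAM protease and then by gamma-secretase, and the released intracellular domain joins the DNA-binding protein RBPJ and a Mastermind coactivator to switch on target genes, of which the repressors of the Hes and Hey families are the best known. In blood vessels, DLL4, NOTCH1 and NOTCH4 are known from the endothelium and NOTCH3 from pericytes and vascular smooth muscle, and in the uterus the pathway has been studied in the preparation of the stroma for decidualization.

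Whole uteri of adult female mice were collected at gestation day (GD) 3.5, shortly before embryo attachment, and their mRNA was sequenced to compare 5 Arid1a f/f uteri, the controls, with 5 from Ltf iCre/+ Arid1a f/f mice, called iCre uteri from here on. Mice of both groups carried floxed alleles of *Arid1a*, a subunit gene of the SWI/SNF chromatin remodeling complex. Those of the second group also carried iCre recombinase in the lactoferrin locus, which is active in the adult endometrial epithelium and has also been reported in myeloid cells. The line has a mixed background of C57BL/6, 129S6/SvEvTac, 129P2/OlaHsd and 129S1/SvImJ. The labels pair no iCre mouse with a control and give no litter, so the p-values measure the spread among these uteri. The gene counts of a uterus summed to between 59296537 and 72702411. Levels are given as CPM, the usual depth-scaled counts, with edgeR's TMM factors applied. Fold changes are log2 values of iCre over control with their standard error (SE) from edgeR's quasi-likelihood test. A gene was called changed at a Benjamini-Hochberg adjusted p under 0.05 over all tested genes, and 9.70% of them were.

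*Arid1a* (chr4:133679008-133756769, minus strand) stood at 251, 210.4, 213, 192 and 197 CPM in control replicates 1 to 5 and at 208, 191, 179, 182 and 165 CPM in iCre replicates 1 to 5. The groups overlapped and the difference did not pass the test (log2 fold change -0.20, SE 0.09, adjusted p = 0.201), so in whole tissue *Arid1a* RNA did not check the genotype labels. *Ltf*, the lactoferrin gene whose locus carries iCre, ranged from 2.22 to 11.7 CPM in controls and from 23.6 to 2831 CPM in iCre uteri (log2 fold change 7.23, SE 1.36, edgeR adjusted p = 0.00920). The 2831 CPM was iCre replicate 5, which also had the highest sum of neutrophil markers (855 CPM). The other iCre uteri ranged from 23.6 to 383 CPM. *Ltf* is not the deleted gene, and its level was not used to check the labels. The uterine genes *Hoxa10*, a homeobox gene (508 and 389 CPM on average in controls and iCre uteri), and *Pgr*, the progesterone receptor gene (314 and 339 CPM), were well expressed in both groups.

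*Notch3* and *Notch4* were the receptors that fell. Of the 4 receptors 2 were called lower and 0 higher, and of the 10 members 3 were called lower and 0 higher, where 4.51% of all tested genes were called lower and 5.19% higher. The log2 fold changes of the members had a median of -0.28 beside 0.03 for all tested genes, and 6 of the 10 were negative beside 47.3% of all tested genes. DESeq2 called the same 3 members lower, and with it 16.2% of all tested genes were called and 7.77% were called lower. The tested genes include some with few counts, which are harder to call than the members. With the low-count filter of edgeR's filterByExpr, 19064 genes were tested, 2538 were called and 1211 were called lower, the same 3 members among them. Before adjustment, 5 members had an edgeR p under 0.05, all lower, as did 26.2% of all tested genes in either direction. In bulk tissue, fewer cells of a type and less RNA per cell cannot be told apart, and this holds for every difference given here.

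**Figure D1:**
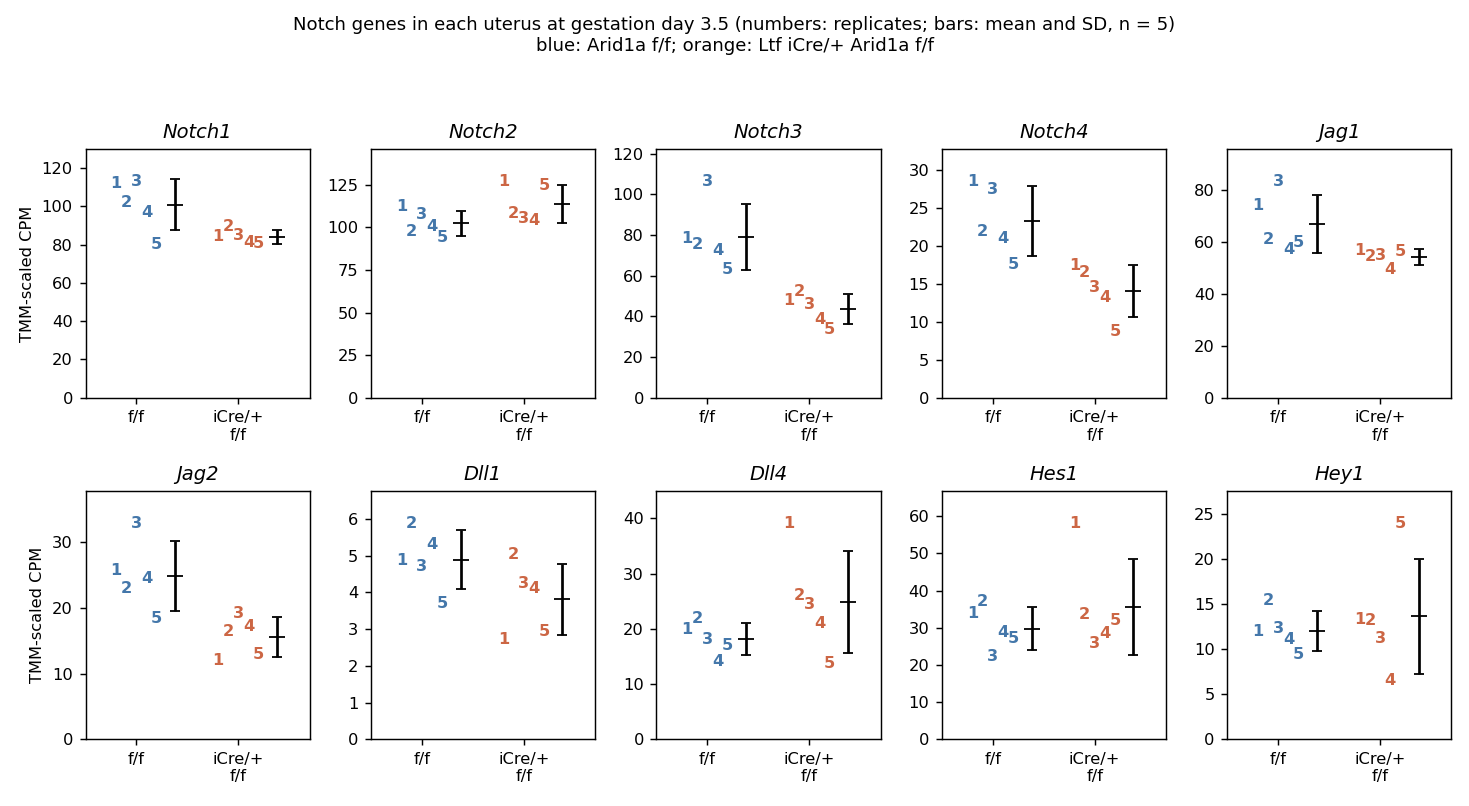
TMM-scaled CPM of the 10 Notch genes in each uterus, with the replicate number as the plotting symbol and the mean and SD (n = 5) as bars beside each group, on a linear axis from 0. Arid1a f/f uteri are blue and Ltf iCre/+ Arid1a f/f uteri orange, and the groups are apart for Notch3, Notch4 and Jag1 only, whereas Dll4, Hes1 and Hey1 spread most among the Ltf iCre/+ Arid1a f/f uteri.

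*Notch3* (ENSMUSG00000038146, chr17:32120820-32166852, minus strand, GRCm38) encodes the receptor of mural cells, the pericytes and smooth muscle around vessels. It stood at 78.3, 75.5, 106, 72.5 and 62.9 CPM in control replicates 1 to 5. In iCre replicates 1 to 5 it stood at 47.7, 52.1, 45.6, 38.4 and 33.7 CPM. Every iCre uterus was below every control, and the highest control was replicate 3. The means were 79.1 ± 16.3 and 43.5 ± 7.38 CPM (SD, 5 uteri each), and the log2 fold change was -0.86 (SE 0.15, edgeR adjusted p = 0.00683). The call held in all 18 alternative analyses, with log2 fold changes between -0.94 and -0.74. An antisense gene, *Gm17276*, overlaps exons of *Notch3*, and as the sources used here do not give the strand setting, reads of the 2 genes may not be separated.

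*Notch4* (ENSMUSG00000015468, chr17:34564268-34588503, plus strand) encodes the receptor known best from endothelial cells. It stood at 28.5, 21.8, 27.4, 20.98 and 17.6 CPM in the control uteri. It stood at 17.5, 16.5, 14.5, 13.2 and 8.72 CPM in the iCre uteri. The groups did not overlap, but the lowest control, replicate 5, and the highest iCre uterus, replicate 1, were nearly level. The mean fell from 23.2 ± 4.57 to 14.1 ± 3.42 CPM (SD, n = 5 each; log2 fold change -0.72, SE 0.19, edgeR adjusted p = 0.0382). With 1 uterus left out the call held in 4 of 10 cases and was lost without control replicate 1, 2, 3 or 4 or iCre replicate 3 or 4 (edgeR adjusted p = 0.0760, 0.0679, 0.0881, 0.0636, 0.0583 and 0.0744).

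*Notch1* (ENSMUSG00000026923, chr2:26457903-26516663, minus strand) encodes the receptor used most widely across tissues. It stood at 112, 102, 113, 96.6 and 80.3 CPM in controls and at 84.2, 89.4, 84.7, 80.9 and 80.8 CPM in iCre uteri. The groups overlapped through control replicate 5, which lay below all 5 iCre uteri, and the latter were close together (coefficient of variation 4.17% beside 13.2% in controls). The difference did not pass the test (log2 fold change -0.26, SE 0.09, adjusted p = 0.103), and it passed without control replicate 5 (log2 fold change -0.34, adjusted p = 0.0253). Exons of *Gm13568* and *0610009E02Rik* overlap those of *Notch1* on the opposite strand.

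*Notch2* (ENSMUSG00000027878, chr3:98013527-98150361, plus strand) encodes a receptor also used widely, and it was the receptor with a positive value. It stood at 112, 97.8, 108, 100.2 and 94.1 CPM in controls and at 127, 108, 105, 104 and 125 CPM in iCre uteri. Replicates 1 and 5 of the iCre group lay above all controls and the other 3 among them. It did not pass the test (log2 fold change 0.15, SE 0.08, edgeR adjusted p = 0.288). Exons of *Gm42820* overlap those of *Notch2* on the same strand.

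Promoter sequences are shown for the receptors and the ligand that fell, as the places where their shared direction could be compared in sequence. They are RefSeq windows of GRCm38.p6 from 250 bases before to 50 after the gene start, on the strand of the gene, and 8 of the 10 members had such an entry. The windows were searched on both strands for TGGGAA, the core of the RBPJ site, and AGGAAG, a core of ETS sites that are common near endothelial genes. Of 32544 mouse promoter windows of this length, 25.4% held the RBPJ core and 35.1% the ETS core. Capitals mark matches, with the reverse complements TTCCCA and CTTCCT included. The *Notch4* window (chr17:34564045-34564344, plus strand) held 4 ETS cores, and the windows of *Notch3* (chr17:32166841-32167140, minus strand) and *Jag2* (chr12:112929446-112929745, minus strand) held neither core, which says only that these letters are not in these windows.
Notch3: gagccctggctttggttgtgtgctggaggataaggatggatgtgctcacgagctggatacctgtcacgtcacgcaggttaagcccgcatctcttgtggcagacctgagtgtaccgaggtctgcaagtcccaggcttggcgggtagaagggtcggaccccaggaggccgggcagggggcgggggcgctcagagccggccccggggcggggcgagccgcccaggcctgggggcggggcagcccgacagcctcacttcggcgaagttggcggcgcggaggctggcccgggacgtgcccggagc
Notch4: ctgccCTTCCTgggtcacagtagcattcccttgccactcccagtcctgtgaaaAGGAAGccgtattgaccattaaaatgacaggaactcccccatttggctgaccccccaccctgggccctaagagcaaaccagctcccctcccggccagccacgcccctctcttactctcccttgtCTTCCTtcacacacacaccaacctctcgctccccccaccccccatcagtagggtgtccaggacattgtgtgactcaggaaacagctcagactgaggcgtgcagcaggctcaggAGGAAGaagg
Jag2: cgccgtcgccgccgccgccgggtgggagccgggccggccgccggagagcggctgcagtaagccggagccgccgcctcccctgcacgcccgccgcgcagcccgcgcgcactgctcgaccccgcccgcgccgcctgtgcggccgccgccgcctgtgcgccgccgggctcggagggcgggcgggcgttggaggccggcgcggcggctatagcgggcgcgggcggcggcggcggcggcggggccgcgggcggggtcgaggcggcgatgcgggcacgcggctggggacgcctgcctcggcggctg
The *Jag2* window was the richest in G and C, at 86.0% of its bases beside 70.0% for *Notch3* and 58.3% for *Notch4*. A match describes the letters and is no measurement of binding.

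Of the ligands, *Jag2* fell, *Jag1* was lower in every iCre uterus without passing the test, and *Dll4* spread widely. Of the 4 ligands 1 was called lower and 0 higher, beside 4.51% and 5.19% of all tested genes.

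*Jag2* (ENSMUSG00000002799, chr12:112907819-112929776, minus strand) encodes a Jagged family ligand. It stood at 25.6, 22.9, 32.8, 24.5 and 18.3 CPM in controls. It stood at 12.0, 16.4, 19.1, 17.1 and 12.8 CPM in iCre uteri. Of these, 4 of 5 lay below all controls, and replicate 3 lay above control replicate 5. The mean fell from 24.8 ± 5.26 to 15.5 ± 3.00 CPM (SD, n = 5 each; log2 fold change -0.68, SE 0.17, edgeR adjusted p = 0.0311). With 1 uterus left out the call held in 4 of 10 cases and was lost without control replicate 1, 2, 3 or 4 or iCre replicate 1 or 5 (edgeR adjusted p = 0.0592, 0.0588, 0.0758, 0.0637, 0.0566 and 0.0524).

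*Jag1* (ENSMUSG00000027276, chr2:137081456-137116644, minus strand) encodes the other Jagged ligand, and no other annotated gene overlaps it. It stood at 73.7, 60.7, 83.1, 57.0 and 59.8 CPM in controls and at 56.4, 54.1, 54.6, 49.1 and 56.3 CPM in iCre uteri. The groups did not overlap, by a small margin between control replicate 4 and iCre replicate 1. The log2 fold change of -0.31 (SE 0.11) did not pass the test (edgeR adjusted p = 0.0972). The exact permutation test, which is unadjusted and two-sided over all arrangements of 5 uteri against 5, gave p = 0.00794, the smallest value it can give. Of the members 3 did not overlap and were lower in iCre uteri (*Notch3*, *Notch4* and *Jag1*), beside 5.16% of all tested genes, or 10.7% with both directions.

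*Dll4* (ENSMUSG00000027314, chr2:119325784-119335962, plus strand) encodes the Delta-like ligand of sprouting endothelium. It stood at 19.9, 21.9, 18.1, 14.0 and 17.0 CPM in controls and at 39.1, 26.1, 24.5, 20.9 and 13.8 CPM in iCre uteri. Replicates 1, 2 and 3 of the latter lay above all controls, replicate 4 among them and replicate 5 below them. The difference did not pass (log2 fold change 0.45, SE 0.23, edgeR adjusted p = 0.245). Exons of *Gm14207* overlap those of *Dll4* on the opposite strand.

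*Dll1* (ENSMUSG00000014773, chr17:15367354-15376872, minus strand) encodes a second Delta-like ligand and had the lowest level of the members per exon length. It stood at 4.88, 5.88, 4.72, 5.30 and 3.69 CPM in controls and at 2.71, 5.04, 4.25, 4.11 and 2.94 CPM in iCre uteri, with replicates 1 and 5 of the latter below all controls. The log2 fold change was -0.36 (SE 0.21, edgeR adjusted p = 0.305), on 173 to 422 counts per uterus, and exons of *A930024N18Rik* overlap on the opposite strand.

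The targets did not pass the test in either direction. *Hes1* (ENSMUSG00000022528, chr16:30064384-30067796, plus strand), which encodes a repressor that holds cells undifferentiated, stood at 33.7, 37.0, 22.4, 28.7 and 27.2 CPM in controls and at 58.1, 33.6, 25.8, 28.5 and 31.9 CPM in iCre uteri. Replicate 1 of the latter was far above the rest and the other 4 lay within the control range. The log2 fold change was 0.26 (SE 0.22, edgeR adjusted p = 0.507). It became 0.003 without iCre replicate 1 alone and -0.024 without iCre replicates 1 and 5.

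*Hey1* (ENSMUSG00000040289, chr3:8663359-8667256, minus strand), which encodes a repressor known from endothelial cells, stood at 12.0, 15.3, 12.3, 11.0 and 9.36 CPM in controls and at 13.3, 13.2, 11.2, 6.55 and 23.9 CPM in iCre uteri. Replicate 5 of the latter was the highest of all uteri and replicate 4 the lowest. The log2 fold change was 0.18 (SE 0.28, edgeR adjusted p = 0.737) and became -0.12 without iCre replicate 5. The spread of both targets among iCre uteri was wide (coefficient of variation 36.4% for *Hes1* and 46.8% for *Hey1*, beside 19.2% and 18.2% in controls).

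**Figure D2:**
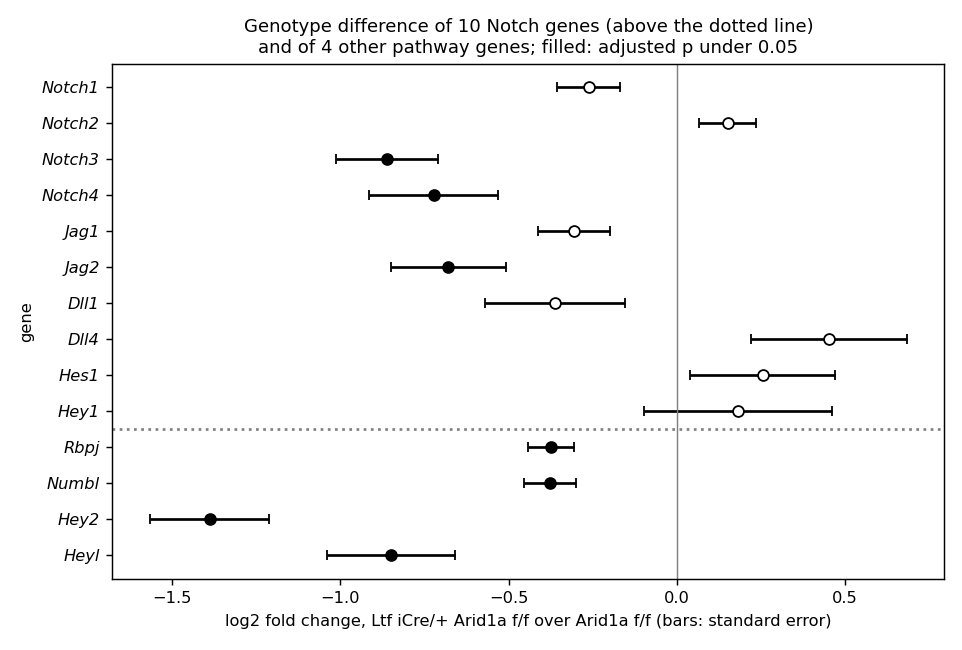
Log2 fold change of Ltf iCre/+ Arid1a f/f over Arid1a f/f uteri with its standard error for the 10 Notch genes (above the dotted line) and the 4 other pathway genes that passed the test, where filled points have an edgeR adjusted p under 0.05. The filled points all lie left of 0, from -0.37 for Rbpj to -1.39 for Hey2, and Hes1 and Hey1 lie right of it with bars that are wide beside their values.

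Other genes of the pathway were taken from a list of 44, of which 41 were tested (*Hes2*, *Hes3* and *Hes5* had a mean below 1 count). Of the 41, 4 were called lower and 0 higher, where 4.51% of all tested genes were called lower and 9.70% in either direction, with a median log2 fold change of -0.12, and 29 had negative values. The 4 were *Rbpj*, *Numbl*, *Hey2* and *Heyl*, and in each the groups did not overlap. Before adjustment 10 of the 41 had an edgeR p under 0.05, all lower, beside 26.2% of all tested genes in either direction, and DESeq2 called 9, all lower, beside 16.2% of all tested genes in either direction and 7.77% lower. No gene of the lists of other ligands (4 tested), ligand endocytosis (4), receptor cleavage (9) or receptor glycosylation (5) was called, whereas 1 of 6 of the nuclear complex, 1 of 9 modulators and 2 of 4 other Hes and Hey genes were.

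*Hey2*, which encodes a repressor of arterial endothelium and heart, had the largest fall of these. It stood at 7.69, 10.02, 11.4, 10.01 and 9.52 CPM in controls and at 4.81, 4.17, 3.34, 2.82 and 3.43 CPM in iCre uteri. The groups were well apart, and the mean fell from 9.73 ± 1.34 to 3.71 ± 0.783 CPM (SD, n = 5 each; log2 fold change -1.39, SE 0.18, edgeR adjusted p = 0.00164). *Heyl*, a Hey family gene known from vascular smooth muscle, stood at 33.8, 31.3, 42.8, 29.6 and 23.3 CPM in controls and at 11.1, 19.2, 21.1, 19.2 and 18.5 CPM in iCre uteri. It fell without overlap (log2 fold change -0.85, SE 0.19, edgeR adjusted p = 0.0190), and the call was lost without control replicate 3 (adjusted p = 0.0515). The falls of these Hey genes stood beside the values of *Hes1* and *Hey1*, which did not pass, and the differences between genes in their response were not tested.

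The *Hey2* promoter window is shown because it was the target gene with the largest change and held 2 matches of the RBPJ core, at 207 and 3 bases before the start, in the same RefSeq build and with the same marking (chr10:30842734-30843033, minus strand). It was thus picked with its matches known, and 25.4% of all promoter windows held this core. No window of the 8 members with an entry held it, nor did that of *Numbl*. The overlapping windows of *Rbpj* held 2 and 1. Control of *Hey2* through these matches was not tested.
Hey2: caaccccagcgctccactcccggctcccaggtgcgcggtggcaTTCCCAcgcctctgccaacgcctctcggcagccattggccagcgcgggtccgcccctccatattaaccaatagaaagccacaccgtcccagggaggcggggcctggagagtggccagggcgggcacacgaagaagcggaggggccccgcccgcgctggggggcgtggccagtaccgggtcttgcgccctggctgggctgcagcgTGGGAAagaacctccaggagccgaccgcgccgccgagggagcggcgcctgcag

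*Rbpj*, which encodes the DNA-binding protein of the pathway, stood at 127, 131, 127, 124 and 133 CPM in controls and at 88.4, 105, 103, 104 and 95.5 CPM in iCre uteri. Its level was tight within each group and fell to 77.2% of the control mean (log2 fold change -0.37, SE 0.07, edgeR adjusted p = 0.00830). *Numbl*, which encodes a relative of the Notch inhibitor NUMB, stood at 58.6, 55.1, 58.6, 54.5 and 58.7 CPM in controls and at 44.9, 44.5, 49.7, 41.4 and 39.3 CPM in iCre uteri. It fell as well (77.0% of the control mean, log2 fold change -0.38, SE 0.08, edgeR adjusted p = 0.0127). Both calls held in all 18 alternative analyses.

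Of the pathway genes that were not called, the 6 with the highest levels are given by their means. *Adam10*, the protease of the first receptor cut, averaged 233 and 227 CPM, *Mib1*, a ubiquitin ligase that ligand-sending cells need, 227 and 199.8 CPM, and *Dtx3*, a Deltex family gene, 162 and 163 CPM in controls and iCre uteri. *Snw1*, a cofactor of RBPJ, averaged 140 and 133 CPM, *Itch*, a ubiquitin ligase of Notch, 120 and 133 CPM, and *Ncstn*, a gamma-secretase subunit, 119 and 134 CPM. Their log2 fold changes lay between -0.18 and 0.18. Outside the rule for named genes and chosen after their values were seen, *Maml3*, a Mastermind coactivator (17.9 and 12.6 CPM, log2 fold change -0.51, adjusted p = 0.0600), and *Dtx4*, a Deltex family gene (111 and 83.1 CPM, log2 fold change -0.41, adjusted p = 0.138), did not overlap between the groups and did not pass the test. *Maml3* was called with DESeq2, library totals only, edgeR's filterByExpr, the replicate block, and without iCre replicate 1, replicate 5 or both, and *Dtx4* without iCre replicate 1.

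Levels of different genes were compared per kilobase of exon (RPKM). In controls the order was *Hes1* (14.6 ± 2.81 RPKM, SD, n = 5), *Jag1* (11.5 ± 1.91), *Notch3* (9.78 ± 2.01), *Notch2* (9.49 ± 0.679), *Notch1* (7.08 ± 0.936), *Dll4* (4.72 ± 0.770), *Hey1* (3.67 ± 0.670), *Jag2* (3.56 ± 0.756), *Notch4* (2.88 ± 0.567) and *Dll1* (1.16 ± 0.192). Of the neighbours in this order only *Notch2* and *Notch1*, and *Notch4* and *Dll1*, had ranges that did not overlap. The order depended on the length used: with the longest transcript in place of all exons, *Notch1* in controls followed *Jag1*, at 10.6 ± 1.40 RPKM, above *Notch3* (9.86 ± 2.03) and *Notch2* (9.75 ± 0.697), *Dll4* stood below *Hey1* and *Jag2*, and *Hes1* no longer overlapped *Jag1*. With all exons, in iCre uteri *Notch3* stood below *Dll4* and *Notch1* in the order, at 5.38 ± 0.912 RPKM, and *Notch2* followed *Hes1*, at 10.5 ± 1.03 RPKM.

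The makeup of the receptor RNA is given by the share of each gene. The share of *Notch3* in the summed RPKM of the 4 receptors was 33.3 ± 2.85% in controls (range 30.8% to 38.1%) and 22.7 ± 2.82% in iCre uteri (range 18.5% to 26.0%), and that of *Notch4* was 9.81 ± 0.855% and 7.36 ± 1.47%. The share of *Notch2* was 32.7 ± 2.52% and 44.8 ± 4.21%. None of these 3 shares overlapped between the groups, and they were not tested. Shares in a family depend on each other, so lower shares of *Notch3* and *Notch4* raise those of the other receptors. The level of *Notch2* itself did not pass the test (log2 fold change 0.15, edgeR adjusted p = 0.288). The share of *Notch1* was 24.2 ± 1.04% and 25.1 ± 1.23% and overlapped. The summed level of the receptors was 29.2 ± 3.86 and 23.6 ± 1.66 RPKM, with overlap. Among the ligands the share of *Jag2* was 17.0 ± 2.11% and 12.0 ± 2.62%, without overlap. The share of *Dll4* was 22.7 ± 3.36% in controls and ran from 22.7% to 45.7% in iCre uteri, with overlap, and those of *Jag1* (54.8 ± 2.92% and 49.8 ± 6.69%) and *Dll1* (5.61 ± 1.11% and 4.84 ± 1.25%) overlapped too.

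**Figure D3:**
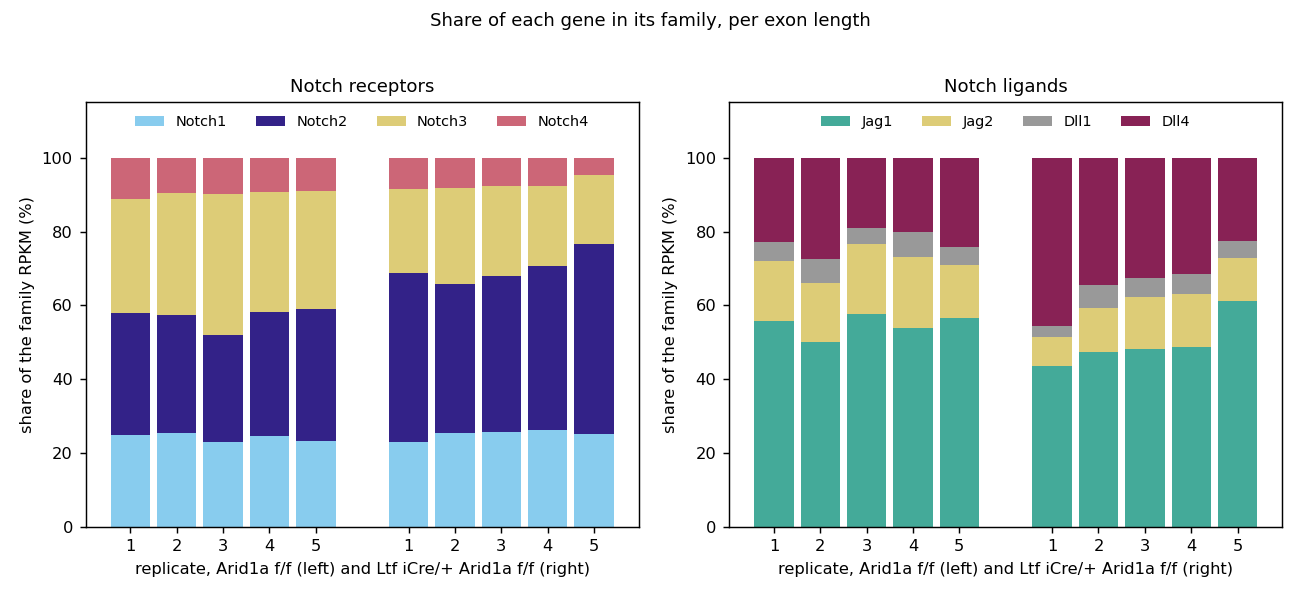
Share of each receptor in the summed RPKM of the 4 Notch receptors (left) and of each ligand in that of the 4 ligands (right), in percent, with 1 stacked bar per uterus, Arid1a f/f uteri on the left of each panel. The Notch3 band is narrower in the Ltf iCre/+ Arid1a f/f uteri (18.5% to 26.0%) than in the controls (30.8% to 38.1%), and the Notch2 band is wider. Shares within a bar depend on each other.

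Markers of other cells are given because the members are expressed in several cell types. The counts of each list, here and below, stand beside 4.51% of all tested genes called lower and 5.19% called higher. The lists were chosen with earlier results of these data known, and no list was tested as a set. Of 12 endothelial markers 10 were called lower and 0 higher, with a median log2 fold change of -0.88, and their summed level was 1005 to 1360 CPM in controls and 508 to 708 CPM in iCre uteri. *Pecam1*, an adhesion molecule gene of endothelium, fell from 223 ± 33.0 to 118 ± 19.5 CPM (log2 fold change -0.93, adjusted p = 0.00273) and *Cdh5*, the gene of vascular endothelial cadherin, from 287 ± 31.9 to 120 ± 37.3 CPM (-1.26, adjusted p = 0.00421). The other 8 called were *Kdr*, *Tek*, *Tie1*, *Emcn*, *Esam*, *Cldn5*, *Erg* and *Robo4*. Of 9 pericyte and smooth muscle markers 1 was called lower (*Rgs5*, a pericyte gene, log2 fold change -1.30). All 9 had negative log2 fold changes, with a median of -0.45. Their sums were 6723 to 11303 CPM in controls and 3568 to 8429 CPM in iCre uteri. *Myh11*, the smooth muscle myosin gene, did not pass (log2 fold change -0.78, edgeR adjusted p = 0.112).

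Of 9 epithelial markers 6 were called higher (*Epcam*, *Cdh1*, *Krt8*, *Krt19*, *Krt7* and *Cldn7*; sums 803 to 1079 and 1175 to 2209 CPM), and of 6 gland markers 1 was called lower (*Foxa2*; 65.4 to 114 and 7.24 to 48.0 CPM). Of 7 stromal markers *Dcn* and *Vim* were called lower, with sums of 14477 to 21574 and 11947 to 21679 CPM, and *Pdgfra* did not pass (adjusted p = 0.0735). Of 5 T cell markers 3 were called higher (*Cd3e*, *Cd3d* and *Cd3g*; 10.9 to 14.3 and 21.7 to 70.3 CPM). The neutrophil sum ran from 12.1 to 855 CPM in iCre uteri and from 5.86 to 23.1 CPM in controls. Replicate 5 of the iCre group was the highest, and *Ly6g* was called higher. No macrophage (0 of 8, *Adgre1* adjusted p = 0.305) or uterine (0 of 4) marker was called at an adjusted p under 0.05. Of the macrophage markers 7 had positive log2 fold changes and 1 a negative one, with a median of 0.62. Their sums were 150 to 302 CPM in controls and 257 to 634 CPM in iCre uteri. The uterine sum was lower without overlap, at 1587 to 1831 CPM in controls and 1308 to 1520 CPM in iCre uteri. The gland genes *Prss28* and *Prss29* were at 0 counts in some libraries.

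The members were also set against the summed markers of 3 cell types, per 1000 CPM of each sum, which are scales chosen after the values were seen and given with no test. Per endothelial markers, the ranges of the 3 members that fell overlapped between the groups, with *Notch3* at 60.8 to 78.1 in controls and 65.7 to 77.7 in iCre uteri, *Notch4* at 17.5 to 22.2 and 17.2 to 28.4, and *Jag2* at 18.2 to 24.1 and 19.6 to 29.3. On that scale *Notch1* (79.9 to 89.0 and 126 to 159), *Notch2*, *Jag1*, *Dll4* (12.9 to 17.6 and 27.1 to 63.7) and *Hes1* were higher in every iCre uterus than in any control, and *Dll1* and *Hey1* overlapped. Per pericyte and smooth muscle markers, 9 of the 10 members overlapped, *Notch3* among them (6.68 to 11.6 and 6.18 to 9.82), and *Dll4* was higher without overlap (1.699 to 2.96 and 3.09 to 5.47). The largest terms of that sum were the smooth muscle genes *Acta2*, *Myh11* and *Tagln*, at 2763, 2334 and 1391 CPM on average in controls. The whole sum averaged 8701 CPM there, and the pericyte gene *Rgs5* gave 847 CPM. This scale thus mostly follows smooth muscle, not pericytes. Per epithelial markers, 8 of the 10 were lower in every iCre uterus than in any control, among them *Notch3* (67.2 to 132 and 20.9 to 38.8), *Notch4* (19.4 to 34.1 and 5.41 to 12.4), *Jag2* (20.4 to 40.9 and 5.44 to 16.3) and *Notch1* (89.3 to 141 and 38.1 to 72.1), and *Dll4* and *Hey1* overlapped. The direction for *Notch1*, *Notch2*, *Jag1* and *Hes1* thus turned with the cell type chosen as the scale. These scales differed by genotype: the iCre mean of the endothelial sum was 51.4% of the control mean and that of the epithelial sum 163%. A gene with equal CPM in both groups thus comes out higher per endothelial markers and lower per epithelial markers. A gene that fell about as much as the endothelial sum comes out nearly level on that scale, whatever cell type expresses it. *Notch3*, *Notch4* and *Jag2* stood at 55.0%, 60.6% and 62.5% of the control mean, so their overlap on that scale does not point to a cell type. The share of all tested genes without overlap on these scales was not computed. The counts of members without overlap on them are thus no result about the Notch genes. The part of the endothelial, pericyte and smooth muscle, epithelial and immune markers in these results was not tested.

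**Figure D4:**
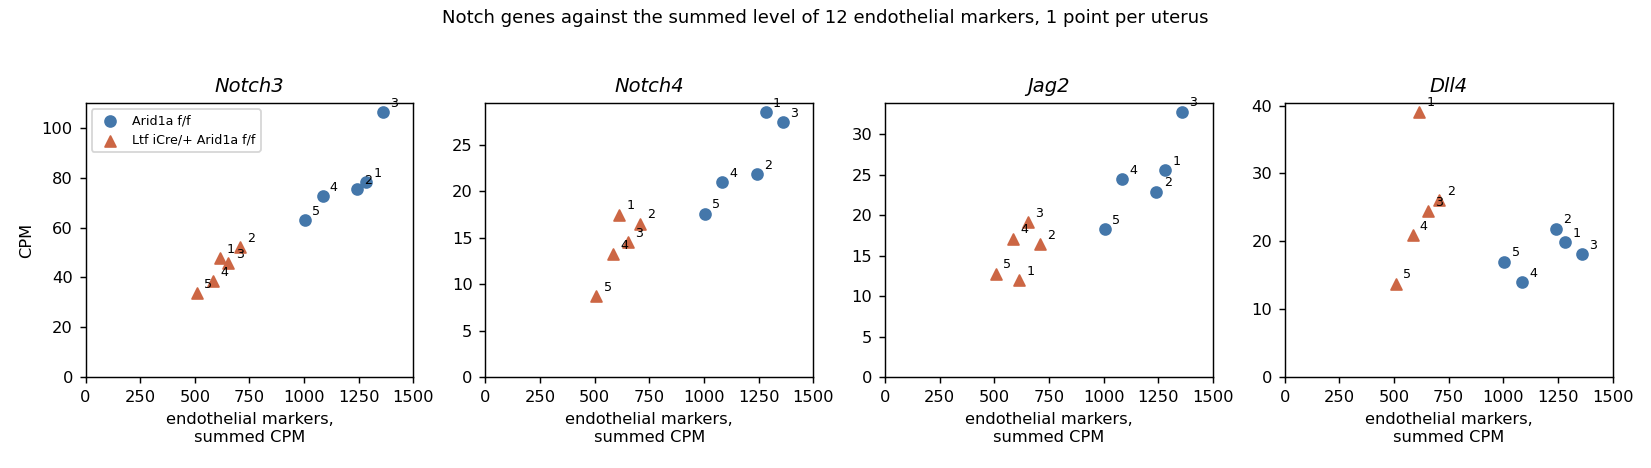
CPM of Notch3, Notch4, Jag2 and Dll4 against the summed CPM of 12 endothelial markers, 1 point per uterus with its replicate number, blue circles for Arid1a f/f and orange triangles for Ltf iCre/+ Arid1a f/f, all axes linear from 0. The Ltf iCre/+ Arid1a f/f uteri lie at 508 to 708 CPM of endothelial markers and the controls at 1005 to 1360 CPM. Dll4 is highest in Ltf iCre/+ Arid1a f/f replicate 1 (39.1 CPM) and lowest in replicate 5 (13.8 CPM), which also has the lowest marker sum.

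For each member the genes most like it were sought among 14591 genes with a mean of at least 100 counts, by Pearson's r of log2 CPM after the mean of each genotype was subtracted, over 10 uteri that share their libraries. They were *Loxl2* and *Enah* for *Notch3* (r = 0.95 each), *Mrm3* (0.97) and *Cdk16* (0.96) for *Notch4*, *Parvb* (0.96) and *Svil* (0.95) for *Notch1*, and *Sympk* and *Plagl2* (0.98 each) for *Notch2*. For the ligands they were *Scin* (0.95) and *Shank3* (0.93) for *Jag2*, *Setd5* and *Trpc6* (0.96 each) for *Jag1*, *Pacs1* (0.97) and *Fastkd5* (0.96) for *Dll4*, and *Bok* (0.94) and *Foxf1* (0.93) for *Dll1*. For the targets they were *Epb41l4a* (0.97) for *Hes1*, and *Rspo1* (0.97) and *Mvb12b* (0.96) for *Hey1*. These values are a description, and no p is given. No member was the most like gene of another, and among the members the highest value was 0.85, between *Notch3* and *Notch4*.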

How the data were processed

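Uterine mRNA of 5 Arid1a f/f and 5 Ltf iCre/+ Arid1a f/f mice was read by the authors in pairs of 50 bp reads. Per the submitters' processing notes, the tools were cutadapt 1.18, Trim Galore 0.6.4, FastQC 0.11.9 and STAR 2.7.3a with the build GRCm38. The authors deposited 1 table of raw read counts for 45706 Ensembl genes, without normalization. Which annotation release was counted, and with which strand setting, is not given in the sources used here. Symbols, positions and exon lengths came from GENCODE M21, which held 45143 of the identifiers, and promoters from RefSeq.

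After a filter at a mean of 1 count, 25146 genes entered edgeR 4.0.16 under R 4.3.3, with TMM factors, a quasi-likelihood fit on genotype alone and Benjamini-Hochberg adjustment. DESeq2 1.42.0 was an alternative. A log2 CPM with a prior count of 2 entered the exact permutation test and the likeness of genes. Figures were drawn with matplotlib 3.10.9 in Python 3.11.15. No libraries were duplicates (chi-square of at least 28.7 per gene between any pair of a genotype). On counts simulated for this comparison (24595 genes, 200 changed), edgeR recovered 71% of 2-fold and 96% of 4-fold changes and called 6 unchanged genes, and DESeq2 recovered 89% and 99% and called 64.

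The members, pathway and marker lists were chosen with earlier results of these data known. The genes named were the members, *Arid1a*, *Ltf*, the pathway genes with an adjusted p under 0.05 and the 6 highest of the others, 9 cell type or uterine markers with any called marker, and the 2 genes most like each member. Some of these are not reported here. Alternative analyses used other scaling, DESeq2, other filters, a replicate block, a robust fit, another gene length and fewer uteri.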

Additional observations from a re-analysis of the deposited data

Results flagged for a closer look

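Among 48 groups of 5 uteri (the members, the called pathway genes and the summed marker lists in each genotype), 4 held a uterus far from the other 4 by Dixon's test at the 95% level, and chance alone gives about 1 such group in 20. *Hes1* stood at 58.1 CPM in replicate 1 of the iCre uteri (Ltf iCre/+ Arid1a f/f), where the nearest other uterus stood at 33.6 CPM. *Heyl* stood at 11.1 CPM in the same uterus, and the nearest at 18.5 CPM. The macrophage marker sum was 634 CPM in iCre replicate 5 beside 348 CPM in the nearest uterus. The neutrophil marker sum was 855 CPM in that uterus beside 22.9 CPM in the nearest. Without replicates 1 and 5 of this group *Notch3* and *Notch4* were called lower and *Jag2* was not (log2 fold change -0.50, edgeR adjusted p = 0.0824).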

How the results depend on the processing

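Over 18 alternative analyses, the log2 fold changes of *Notch3*, *Rbpj*, *Numbl* and *Hey2* stayed negative and past the threshold. DESeq2 called 4062 of all genes (16.2%) and 9 other pathway genes, and called the same 3 members. Without 1 uterus, the count over all genes lay between 1204 and 2381, at 1204, 1248 and 1414 without control replicates 2, 3 and 4, and between 1 and 4 members were called, with *Notch3* alone without control replicate 1, 2, 3 or 4. Of the 12 endothelial markers 9 to 11 were called, a check added after the data were seen. The log2 fold change of *Hes1* turned to -0.024 without iCre replicates 1 and 5. It was 0.003 without replicate 1 alone and 0.29 without replicate 5 alone, so its positive value rested on replicate 1. *Hey1* turned to -0.12 without iCre replicate 5 and to -0.22 without both; leaving out 1 uterus gave it values from -0.12 to 0.36. The cause was not tested. With the longest transcript as gene length, shares in control and iCre uteri were 31.5% and 32.6% for *Notch1*, 29.1% and 39.8% for *Notch2*, and 29.1% and 19.8% for *Notch3*, that of *Jag1* in controls was 51.7%, and those of *Jag2* were 21.1% and 15.1%. This alternative changes only the lengths.

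The replicate numbers showed no clear pairing of the uteri. The correlation of deviations between same-numbered uteri ran from -0.16 to 0.22, and 1 of 5 controls was most like its own number. These correlations cannot exclude shared litters, and the paper states that littermates were compared where this could be done. With the replicate number as a block, 1704 genes were called, with the same 3 members and 5 other pathway genes. The members had at least 173 counts in every uterus, and the effect of depth was not tested. The limits are 5 uteri per genotype, whole tissue and the unknown strand setting.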
